A study of Mus musculus with 7 samples.

Results

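The genes described here are 30 transcripts that have been reported as targets of miR-122, the microRNA that dominates the microRNA pool of hepatocytes. The rule takes them by name and uses no value of these arrays, although the list was drawn up with earlier results of these data known. Of the 30, 29 were matched to a probe set with a single gene symbol among the 16819 genes measured. G6pdx, the glucose-6-phosphate dehydrogenase gene, was not matched and is not analysed here. Ctgf appears under its newer name Ccn2 and Pkm2 under Pkm. Expression was measured in whole liver of male mice carrying floxed alleles of Dicer1 (Dicer1 fl/fl) on a mixed background of 129S4 and C57BL/6. The groups were 3 control livers at 0 weeks, 2 livers taken 2 weeks after AAV8-Ttr-Cre and 2 livers taken 4 weeks after it, with 1 array per liver. The virus, an adeno-associated vector of serotype 8, was given at 8 to 10 weeks of age and carries Cre recombinase under the transthyretin promoter, which is active in hepatocytes. All mice were fasted for 4 hours before harvest. The control livers carried the same floxed alleles and are labelled as 0 weeks, and none of the 7 arrays is a later control without Cre, so the virus, Cre itself, the elapsed weeks and the loss of Dicer1 cannot be told apart.

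A microRNA guides Argonaute proteins to matching sites, mostly in the 3′ untranslated region of a messenger RNA, and the bound transcript is translated less and degraded faster. Dicer1 cuts the precursor hairpins to mature microRNAs, so cells that lose Dicer1 stop making new miR-122, and its targets are released from repression only as the existing molecules decay. In hepatocytes miR-122 is known for holding down transcripts typical of other tissues, among them the muscle-type enzymes Aldoa and Gys1, and for supporting the expression of cholesterol synthesis genes by an indirect route.

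The deposited values are log2 signals, so a difference of 1 is a factor of 2 in signal. Dicer1 read 8.73, 8.71 and 8.58 in control livers, 8.03 and 7.79 at 2 weeks, then 7.97 and 8.05 at 4 weeks. All 4 arrays after Cre lay below the 3 controls, with a log2 fold change of -0.71 after Cre against control (SE 0.07, adjusted p = 0.00675, limma). The probe set of the Mir122 gene itself, which covers a precursor and says nothing of the mature microRNA, read 6.06, 6.62 and 5.56 in control livers, 6.90 and 7.72 at 2 weeks, then 8.35 and 6.90 at 4 weeks. Its 4 values after Cre lay above all 3 controls, but the log2 difference of 1.39 did not pass the test (SE 0.45, adjusted p = 0.109, limma). The array of 2 week replicate 1 stood closest to the controls on the first principal component, at 6.57 against 24.3 for 2 week replicate 2, 18.4 and 19.8 at 4 weeks, and -23.8 to -22.4 for the controls.

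Of the 29 measured targets, 9 were higher after Cre (both times averaged) than in control livers, and 0 were lower, at an adjusted p under 0.05 over all 16819 genes. They were Ccng1, Adam10, Rell1, Aldoa, Mapre1, Ndrg3, Tgfbr1, Cs and Srf. Among all genes, 6.79% were called higher and 6.12% lower (12.9% in all) in this comparison. Of the 29 targets, 25 had a mean signal above the median of all genes, all but Slc7a1, Gpx7, Igf1r and Tbx19. With the dimmer genes left out, 13 of these 25 were called higher, where 33.1% of the genes kept were called in either direction. Values repeated exactly between arrays occurred in 9 of the 29 targets, none of them called, and in 58.4% of all genes. Leaving out genes with such repeats, a setting chosen after seeing the data, kept 20 targets, of which 15 were called higher. Of the genes kept in that setting, 42.4% were called in either direction. The log2 fold changes of the 29 ran from -0.44 (Entpd4) to 1.18 (Ccng1), with a median of 0.21 where the median of all genes was 0.003. The number called higher was 6, 4 and 4 without control replicate 1, 2 and 3, 12 and 9 without 2 week replicate 1 and 2, and 6 without either 4 week array. In these settings 5.08%, 3.39% and 3.41%, 16.6% and 9.99%, and 5.24% and 5.43% of all genes were called in either direction. Without 2 week replicate 1, Klf6 (log2 1.15, adjusted p = 0.0305, limma), Agpat1 (1.21, 0.0212), Gpx7 (0.80, 0.0368) and Foxp1 (0.55, 0.00454) were called higher and Srf (0.23, 0.0603) was not. With the arrays all kept, the other 20 did not pass the test, Slc7a1, Gys1, P4ha1 and Cd320 among them.

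**Figure D1:**
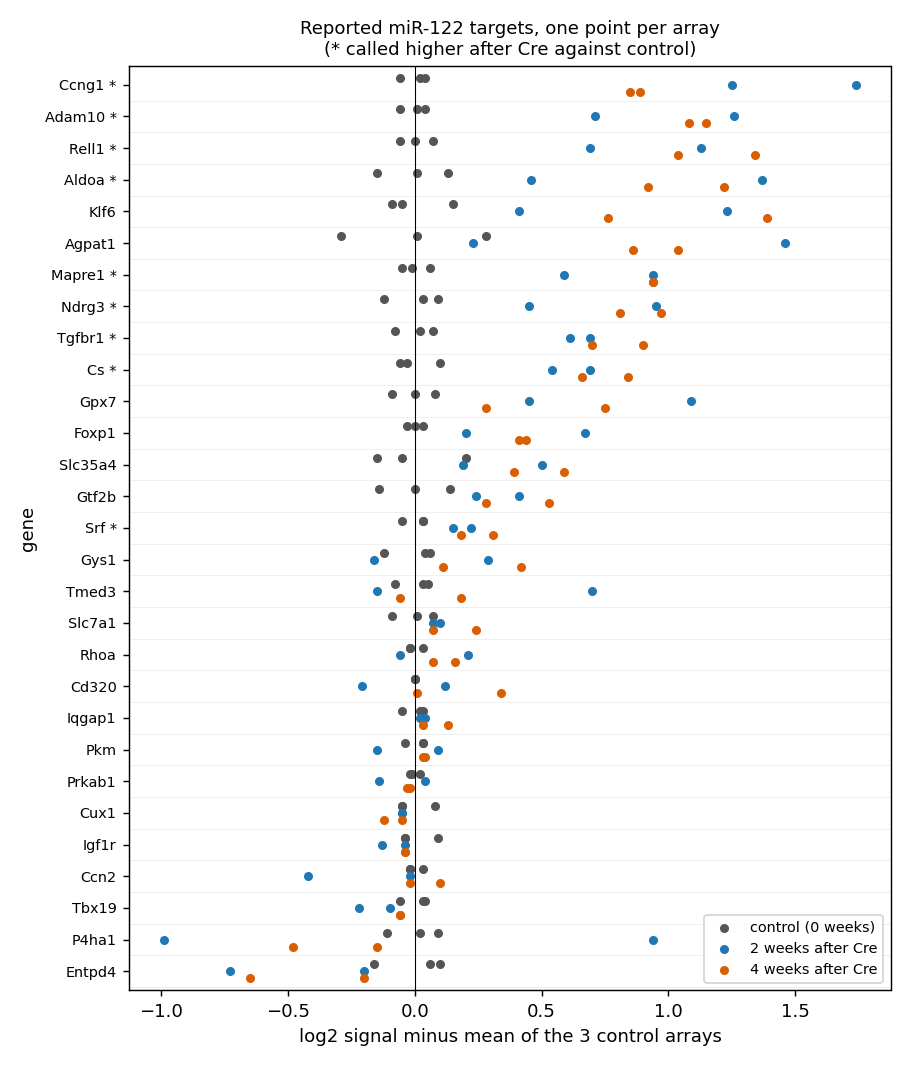
Log2 signal of each of the 29 measured targets on each array, as the difference from the mean of the 3 control arrays (horizontal axis), with genes in the order of their log2 fold change after Cre and 1 point per array. The points after Cre lie to the right of all controls in 13 genes and to the left in 1 (Entpd4), and asterisks mark the 9 genes called higher.

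At 2 weeks 6 of the 29 were called higher and 0 lower, where 3.46% of all genes were called higher and 2.47% lower (5.93% in all). At 4 weeks 7 were called higher and 0 lower, where 5.15% and 4.62% of all genes were (9.77% in all). The 6 called at 2 weeks (Adam10, Ccng1, Cs, Mapre1, Rell1 and Tgfbr1) were all called at 4 weeks as well, and Ndrg3 was the seventh. Both times were set against the same 3 control arrays, so these counts are not independent of each other. The number called at 2 weeks was 0 without control replicate 1, 2 or 3, 13 without 2 week replicate 1, 3 without 2 week replicate 2, and 2 without either 4 week array. All genes called at 2 weeks numbered 997 with all arrays and 41 to 329 in the cases with fewer targets called. At 4 weeks it was 3, 2 and 1 without control replicate 1, 2 and 3, 0 without either 4 week array, and 9 without either 2 week array. All genes called at 4 weeks numbered 1643 with all arrays, 457, 312 and 294 without a control, 63 and 94 without a 4 week array, and 1948 without either 2 week array. Without 2 week replicate 1, at 2 weeks, 7 more targets were called higher by limma, where 12.9% of all genes were called in either direction. These were Agpat1 (log2 1.47, adjusted p = 0.0338), Aldoa (1.37, 0.0204), Gpx7 (1.09, 0.0446), Ndrg3 (0.95, 0.0198), P4ha1 (0.94, 0.035), Tmed3 (0.70, 0.0329) and Foxp1 (0.67, 0.00913). At 4 weeks, the same setting added Aldoa (log2 1.07, adjusted p = 0.0198, limma) and Foxp1 (0.43, 0.0101).

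Read by overlap of the arrays, 13 of the 29 lay above all controls at 2 weeks and 3 below, where 17.3% of all genes lay above and 17.5% below. At 4 weeks 18 lay above and 2 below, where 21.6% and 18.2% of all genes did. Over all 4 arrays after Cre, 13 lay above all controls and 1 below, against 12.9% and 12.2% of all genes. The targets above the controls on all 4 arrays included Klf6, Gpx7, Foxp1 and Gtf2b, which did not pass the test, beside the 9 that did.

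The arrays differed in how far the targets stood above control. The median difference of the 29 from the control mean was 0.148 and 0.498 on 2 week replicates 1 and 2, and 0.277 and 0.408 on 4 week replicates 1 and 2, while the median of all genes stayed between -0.002 and 0.005 on these arrays. On 2 week replicate 1, 14 of the 29 exceeded the highest control and 10 fell below the lowest, where 28.5% and 28.8% of all genes did. On 2 week replicate 2 these counts were 23 and 4, against 30.3% and 33.3% of all genes. The 4 week arrays held 19 and 22 targets above the highest control and 4 and 2 below the lowest, where 31.9% and 33.0% of all genes lay above and 27.9% and 26.7% below. Within the 2 week pair, replicate 2 was the higher array for 26 of the 29 targets and for 42.6% of all genes. Within the 4 week pair, replicate 2 was the higher one for 22 of the 29 and for 44.6% of all genes.

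**Figure D2:**
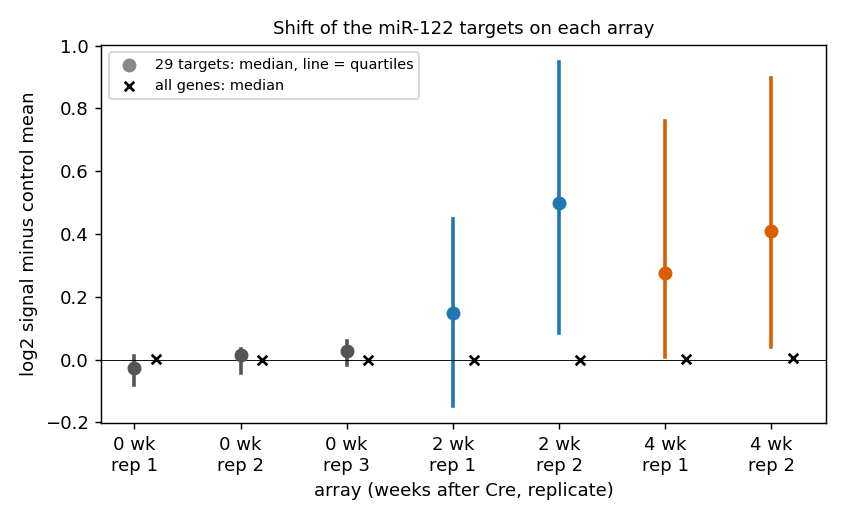
Difference from the control mean in log2 signal (vertical axis) on each of the 7 arrays, shown as the median and quartiles of the 29 targets (points and lines) and the median of all genes (crosses). The targets' median is 0.148 on 2 week replicate 1 and between 0.277 and 0.498 on the other 3 arrays after Cre, while the median of all genes stays close to 0.

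Among the cell cycle, cytoskeleton and growth genes, 3 of 5 were higher after Cre and 2 did not pass the test. Cyclin G1 (Ccng1, Entrez gene 12450), which binds a protein phosphatase subunit and acts back on the p53 regulator Mdm2, had the largest log2 fold change of the 29 at 2 weeks and with both times averaged, and the eighth in size at 4 weeks. It read 9.85, 9.93 and 9.95 in control livers, 11.16 and 11.65 at 2 weeks, then 10.76 and 10.80 at 4 weeks. The 4 arrays after Cre stood apart from the controls, and both 4 week arrays lay below both 2 week arrays. Ccng1 was 2.82-fold higher at 2 weeks than in control (log2 1.50, SE 0.14, adjusted p = 0.0105, limma) and 1.83-fold higher at 4 weeks (log2 0.87, SE 0.14, adjusted p = 0.0233). The difference of 4 weeks from 2 weeks, -0.63 (SE 0.15), did not pass the test over all genes (adjusted p = 0.487, limma).

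Mapre1 encodes EB1, a protein that rides on the growing ends of microtubules. It read 8.60, 8.64 and 8.71 in control livers, 9.24 and 9.59 at 2 weeks, then 9.59 and 9.59 at 4 weeks, with no overlap between the arrays after Cre and the controls. Mapre1 was 1.69-fold higher at 2 weeks (log2 0.76, SE 0.10, adjusted p = 0.0229, limma) and 1.92-fold higher at 4 weeks (log2 0.94, SE 0.10, adjusted p = 0.011). Ndrg3, of the N-myc downstream regulated family, read 8.84, 8.90 and 8.69 in control livers, 9.26 and 9.76 at 2 weeks, then 9.62 and 9.78 at 4 weeks. Its arrays after Cre were all above control, and the rise was 1.85-fold at 4 weeks (log2 0.89, SE 0.16, adjusted p = 0.0287, limma) but did not pass at 2 weeks (log2 0.70, adjusted p = 0.0639). Rhoa, a small GTPase that controls actin fibres, and Iqgap1, a scaffold that links such GTPases to actin, had log2 fold changes of 0.10 and 0.05 after Cre and did not pass.

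Ccng1 is also a classical target of the transcription factor p53. Of 19 measured genes of a p53 target list, 6 were called higher at 2 weeks (median 0.44) and 3 at 4 weeks (median 0.09). Ccng1 was counted in both, and among all genes 3.46% and 5.15% were called higher at these times. The p53 targets Btg2, an antiproliferative gene, and Trp53inp1 had log2 fold changes of 1.85 and 1.41 at 2 weeks, then 1.31 and 1.12 at 4 weeks. Eda2r, a receptor of the tumour necrosis factor receptor family, and Polk, a DNA polymerase that copies past damage, were called higher at 2 weeks (1.29 and 0.72) and not at 4 weeks (-0.05 and 0.15). Of the 19, 18 were lower at 4 than at 2 weeks, with 0 of these differences passing the test by limma and 5 having an unadjusted p under 0.05. The median difference of the 19 was -0.29, where that of all genes was 0.007. The part of p53 in the rise of Ccng1 was not tested. The 250 bases before the transcription start (RefSeq, build GRCm38.p6) are shown for Ccng1 (chr11:40755287-40755536, minus strand) and Mapre1 (chr2:153741037-153741286, plus strand), the members called higher whose promoter holds a match to the p53 half-site, the decamer that p53 binds in pairs. Both are written 5′ to 3′ along the gene with the half-site in capitals, and in Mapre1 also the E-box CACGTG.
Ccng1: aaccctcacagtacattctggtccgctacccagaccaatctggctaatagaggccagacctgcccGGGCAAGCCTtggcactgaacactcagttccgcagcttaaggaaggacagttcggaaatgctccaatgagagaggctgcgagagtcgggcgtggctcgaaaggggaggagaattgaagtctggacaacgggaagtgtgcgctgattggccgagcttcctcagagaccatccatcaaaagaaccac
Mapre1: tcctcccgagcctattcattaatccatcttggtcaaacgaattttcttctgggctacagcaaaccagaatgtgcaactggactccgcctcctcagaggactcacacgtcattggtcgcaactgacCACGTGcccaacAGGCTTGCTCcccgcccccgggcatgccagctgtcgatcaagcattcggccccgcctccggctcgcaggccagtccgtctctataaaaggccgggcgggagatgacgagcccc
The match begins 185 bases before the start in Ccng1 and 113 bases before it in Mapre1, where the E-box begins at 125. RefSeq promoter windows were matched for 26 of the 29 targets, with 37 windows in all, some genes having more than 1. On either strand, the half-site was found in 4 of the 37 windows (10.8%, in Ccng1, Mapre1, Gys1 and Cd320) and in 7.13% of all 32851 windows of that length. CACGTG was found in 3 of the 37 (8.11%, in Adam10, Klf6 and Mapre1) and in 6.02% of all windows. The CCAAT box, a common element of vertebrate promoters with the letters CCAAT, was found in 17 of the 37 (45.9%) and in 33.8% of all windows. The AP-1 motif TGANTCA was found in 2 of the 37 (5.41%, in Aldoa and Slc7a1) and in 6.75% of all windows. The CArG box, which Srf binds, was found in 1 of the 37 (2.70%), in Srf itself, and in 1.47% of all windows.

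Of the 7 receptor, protease and matrix genes 3 were higher, Adam10, Rell1 and Tgfbr1, and 4 did not pass the test. Adam10, a membrane protease that sheds the outer parts of receptors and ligands such as Notch, read 8.84, 8.77 and 8.87 in control livers, 9.54 and 10.09 at 2 weeks, then 9.91 and 9.98 at 4 weeks. Its lowest value after Cre was above its highest control value. Adam10 was 1.98-fold higher at 2 weeks (log2 0.99, SE 0.16, adjusted p = 0.0296, limma) and 2.17-fold higher at 4 weeks (log2 1.11, SE 0.16, adjusted p = 0.0179). Rell1, a membrane protein related to the tumour necrosis factor receptor family member Relt, read 8.38, 8.32 and 8.45 in control livers, 9.07 and 9.51 at 2 weeks, then 9.42 and 9.72 at 4 weeks. Again no array after Cre overlapped the controls. Rell1 was 1.87-fold higher at 2 weeks (log2 0.90, SE 0.15, adjusted p = 0.0351, limma) and 2.28-fold higher at 4 weeks (log2 1.19, SE 0.15, adjusted p = 0.0158).

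Tgfbr1, the type I receptor of transforming growth factor beta, was the target with the smallest adjusted p after Cre. It read 8.84, 8.94 and 8.99 in control livers, 9.53 and 9.61 at 2 weeks, then 9.62 and 9.82 at 4 weeks, so its replicates lay close together in each group. Tgfbr1 was 1.56-fold higher at 2 weeks (log2 0.64, SE 0.08, adjusted p = 0.0188, limma) and 1.74-fold higher at 4 weeks (log2 0.80, SE 0.08, adjusted p = 0.009). Ccn2 (connective tissue growth factor), a matrix protein that transforming growth factor beta induces, read 8.24, 8.19 and 8.19 in control livers, 7.79 and 8.19 at 2 weeks, then 8.19 and 8.31 at 4 weeks. It did not pass the test at either time (log2 -0.22 and 0.04).

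P4ha1, the prolyl hydroxylase subunit that modifies collagen, had the largest standard error among the targets. It read 8.52, 8.65 and 8.72 in control livers, 7.64 and 9.57 at 2 weeks, then 8.48 and 8.15 at 4 weeks. The 2 week arrays lay on opposite sides of the controls, and both 4 week arrays lay below them. Its log2 fold change at 2 weeks was -0.03 (SE 0.54, adjusted p = 0.995, limma) and 0.94 without 2 week replicate 1 (adjusted p = 0.035). Igf1r, the receptor of insulin-like growth factor 1, and Cd320, the receptor that takes up vitamin B12 bound to transcobalamin, had log2 fold changes of -0.06 and 0.06 after Cre and did not pass.

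Of the 6 measured enzymes of central carbon, glycogen and phospholipid metabolism 2 were higher after Cre, Cs and Aldoa, and 4 did not pass. Citrate synthase (Cs), the entry enzyme of the citric acid cycle, read 10.25, 10.38 and 10.22 in control livers, 10.82 and 10.97 at 2 weeks, then 10.94 and 11.12 at 4 weeks. Every array after Cre was above control, and Cs was 1.53-fold higher at 2 weeks (log2 0.61, SE 0.08, adjusted p = 0.0225, limma) and 1.68-fold higher at 4 weeks (log2 0.75, SE 0.08, adjusted p = 0.011). Aldoa, the muscle-type aldolase of glycolysis and a standard readout of miR-122 inhibition in mouse liver, read 10.41, 10.69 and 10.57 in control livers, 11.02 and 11.93 at 2 weeks, then 11.48 and 11.78 at 4 weeks. Its arrays after Cre were also all above control, but they were spread over 0.90 log2 units at 2 weeks. Aldoa passed only with both times averaged (1.99-fold, log2 0.99, SE 0.23, adjusted p = 0.044, limma), and not at 2 weeks (log2 0.92, SE 0.27, adjusted p = 0.116) or 4 weeks (log2 1.07, SE 0.27, adjusted p = 0.0681).

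Agpat1, which makes phosphatidic acid on the way to triglycerides and phospholipids, read 8.36, 8.63 and 8.06 in control livers, 8.58 and 9.81 at 2 weeks, then 9.21 and 9.39 at 4 weeks. Replicate 1 at 2 weeks lay within the control range and the other 3 arrays above it, and the log2 fold change of 0.90 after Cre did not pass (SE 0.31, adjusted p = 0.129, limma). Gys1, the muscle-type glycogen synthase, read 7.04, 7.22 and 7.20 in control livers, 7.0 and 7.45 at 2 weeks, then 7.27 and 7.58 at 4 weeks, and its log2 fold change of 0.17 did not pass. Pkm, the pyruvate kinase gene that gives the M1 and M2 isoforms, stayed between 8.62 and 8.86 on all arrays, with no difference after Cre beyond its error (log2 SE 0.06, adjusted p = 0.987). A lower Pkm probe set ran from 8.60 to 8.87. Prkab1, a regulatory subunit of the AMP-activated kinase, had a log2 fold change of -0.03.

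Of the 6 transcription factor genes 1 was called higher after Cre, Srf, and 5 did not pass. Srf (serum response factor), which drives actin and immediate early genes, read 7.67, 7.67 and 7.59 in control livers, 7.79 and 7.86 at 2 weeks, then 7.95 and 7.82 at 4 weeks. The groups did not overlap, although the change was small at 1.16-fold (log2 0.21, SE 0.05, adjusted p = 0.049, limma). Srf missed the threshold without any 1 of the 7 arrays, with adjusted p-values from 0.0586 to 0.151. Klf6, a zinc finger factor induced in liver injury, read 7.46, 7.26 and 7.22 in control livers, 7.72 and 8.54 at 2 weeks, then 8.07 and 8.70 at 4 weeks. All its arrays after Cre were above control, but the log2 fold change of 0.94 did not pass (SE 0.24, adjusted p = 0.061, limma). Foxp1, a forkhead repressor, had a log2 fold change of 0.43 (adjusted p = 0.061) and the general transcription factor gene Gtf2b one of 0.36 (adjusted p = 0.0682), both with all 4 arrays above control. Cux1, a homeodomain factor, was at -0.06 and Tbx19, a T-box factor best known from pituitary cells, at -0.11.

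None of the 5 transport, secretory and redox genes passed the test in any comparison with control by limma. In the limma fit, Gpx7 at 2 weeks, Slc35a4 at 4 weeks, and Gpx7, Slc35a4 and Entpd4 after Cre had an unadjusted p under 0.05. Gpx7, a peroxidase of the endoplasmic reticulum, read 6.47, 6.64 and 6.56 in control livers, 7.01 and 7.65 at 2 weeks, then 6.84 and 7.31 at 4 weeks, with every array after Cre above control. Slc7a1, the cationic amino acid transporter CAT-1, one of the earliest targets described for miR-122 in human liver cells, read 6.58, 6.68 and 6.74 in control livers, 6.74 and 6.77 at 2 weeks, then 6.74 and 6.91 at 4 weeks. The groups overlapped, and its log2 fold change of 0.12 did not pass (SE 0.06, adjusted p = 0.275, limma). Slc7a1 was among the dim targets, with a mean signal not above the median of all genes.

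Entpd4, a nucleotidase of the Golgi and lysosomes, was the 1 target that lay below control on all 4 arrays. It read 9.71, 9.93 and 9.97 in control livers, 9.67 and 9.14 at 2 weeks, then 9.67 and 9.22 at 4 weeks. One array at each time lay just under the lowest control, and the log2 fold change of -0.44 did not pass (SE 0.17, adjusted p = 0.168, limma). Tmed3, a cargo receptor between the endoplasmic reticulum and the Golgi, was at 0.17 and Slc35a4, of the nucleotide sugar transporter family, at 0.42.

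**Figure D3:**
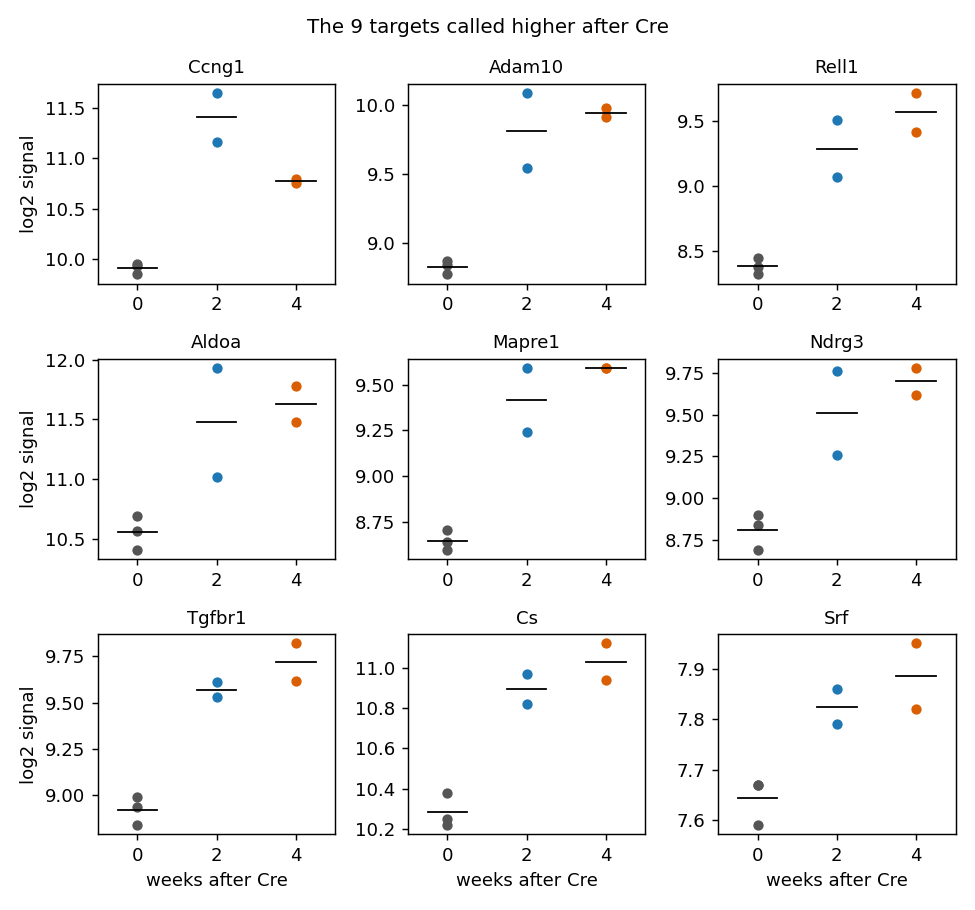
Log2 signal (vertical axes, each with its own range) of the 9 targets called higher after Cre, by weeks after Cre (horizontal axes), with 1 point per array and a bar at the group mean. The points after Cre lie above all controls in each panel, and the 4 week points lie below the 2 week points in Ccng1.

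The values of several targets that did not pass were repeated exactly between arrays, which bears on their errors. Igf1r carried 1 value on 5 of 7 arrays and Cux1 likewise, to 5 decimals. Cd320 had the same value on all 3 control arrays (7.53), Ccn2, Pkm and Tbx19 shared a value on 3 arrays, and Slc7a1, Iqgap1 and Entpd4 on 2. Such repeats were found on at least 2 arrays in 9 of the 29 targets and in 58.4% of all genes, and on at least 3 arrays in 6 targets and in 38.2% of all genes. None of the 9 targets called higher had one. The sources used here do not say how they arose. A repeated value lowers the spread between replicates below that of independent measurements. Where control and Cre arrays share a value, it also leaves no difference between those arrays.

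Between the times, 0 of the 29 targets differed at 4 weeks from 2 weeks by limma, where 1 gene among all (0.00595%) was called higher and 0.0% lower, and 1 target, Ccng1, had an unadjusted p under 0.05 (0.0075). The log2 differences of 4 weeks from 2 weeks ran from -0.63 (Ccng1) to 0.28 (Rell1), and 23 of the 29 were above 0. Of the 7 targets called at either time, 6 had the higher mean at 4 weeks. By overlap, 4 targets (Mapre1, Tgfbr1, Ccn2 and Tbx19) lay above both 2 week arrays on both 4 week arrays and 1 (Ccng1) below, where 15.0% and 11.6% of all genes did. In Mapre1 and Ccn2 this gap was too small to show at 2 decimals. The higher 2 week array and the lower 4 week array both read 9.59 in Mapre1 and 8.19 in Ccn2. The median difference was 0.08, and it was -0.01 without 2 week replicate 1.

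Close relatives of the targets were followed on the same arrays, 1 or 2 for each target with an evident one, in 23 pairs of measured genes. H6pd, the relative of the unmeasured G6pdx, was counted too. After Cre, of the 24 paralogs measured, 5 were called higher (Ndrg1, Ccn1, H6pd, Adam17 and Insr) and 2 lower, where 6.79% and 6.12% of all genes were. The median log2 fold change of the paralogs was 0 to 2 decimals, where that of the 29 targets was 0.21. Both paralogs called lower are the liver-type isozymes of a muscle-type target. Gys2, the liver glycogen synthase, read 12.30, 12.44 and 12.47 in control livers, 11.64 and 11.53 at 2 weeks, then 11.63 and 11.60 at 4 weeks. Its values after Cre were all below control (log2 -0.80, SE 0.06, adjusted p = 0.00363, limma), beside a log2 fold change of 0.17 for Gys1. Pklr, the liver and red cell pyruvate kinase, read 11.83, 12.34 and 12.16 in control livers, 10.74 and 10.73 at 2 weeks, then 10.95 and 10.57 at 4 weeks. It was 2.57-fold lower after Cre (log2 -1.36, SE 0.15, adjusted p = 0.00746, limma), while Pkm did not pass the test.

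Among the relatives of the targets that rose, Rell2 (log2 0.00 at 4 weeks), Tgfbr2 (-0.14 after Cre), Mapre2 (-0.32), Mapre3 (0.24) and the brain-type aldolase Aldoc (-0.33) did not pass the test. Rell2 had exactly the same value on 3 arrays and Mapre3 on 2. Ccng2 had a log2 fold change of 1.01, close to that of Ccng1, but did not pass (adjusted p = 0.0951, limma). Adam17, the other main sheddase and itself reported as a miR-122 target in human cells, was 1.63-fold higher after Cre (log2 0.71, adjusted p = 0.0166). Ndrg1, induced by hypoxia and stress, was 5.27-fold higher (log2 2.40, adjusted p = 0.00407), more than Ndrg3. Insr, the insulin receptor, was 1.50-fold higher (log2 0.59, adjusted p = 0.00396), where Igf1r was at -0.06, and Ccn1 was 1.73-fold higher (log2 0.79, adjusted p = 0.0335), where Ccn2 was at -0.09. Igf1r carried 1 value on 5 arrays and Ccn2 on 3, control and Cre arrays among them. The difference between a target and its relative was not tested.

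**Figure D4:**
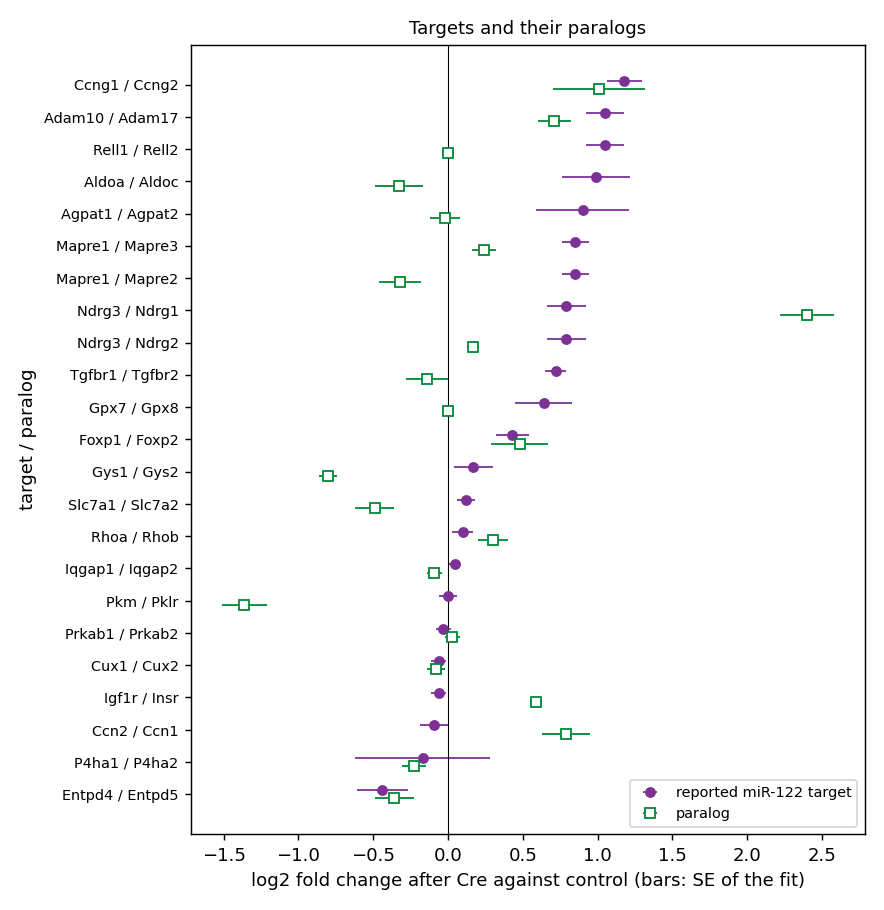
Log2 fold change after Cre against control (horizontal axis, bars are the SE of the fit) for each target (filled circles) and its paralog (open squares). Gys2 and Pklr lie to the left of 0 at -0.80 and -1.36, Ndrg1 lies farthest to the right at 2.40, and the targets at the top lie near 1.

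Other genes reported in work on miR-122 were counted in the same way, 14 of 16 being measured. After Cre, 6.79% of all genes were called higher and 6.12% lower. Of these 14 genes, 4 were called higher and 0 lower, with a median log2 fold change of 0.11. Hemojuvelin (Hjv), a co-receptor that raises hepcidin and a reported target in mouse liver, had the largest of these changes at 1.32 at 2 weeks (SE 0.13, adjusted p = 0.0126, limma) and 1.47 at 4 weeks (SE 0.13, adjusted p = 0.00866). Adam17, Bckdk, the kinase that switches off branched-chain amino acid breakdown (log2 0.50 after Cre), and Mef2d, a MADS-box transcription factor (0.34), were the others. Of 25 measured targets reported for miR-29, 4 were called higher and 1 lower after Cre, with a median of 0.14. Of 21 reported for let-7, 5 were called higher and 1, Dicer1 itself, lower, with a median of 0.06. Whether these lists differ from that of miR-122 was not tested.

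Of 13 genes of microRNA processing and silencing, 4 were called higher and 1, Dicer1, lower after Cre, with a median of 0.10. Among all genes, 6.79% were called higher and 6.12% lower after Cre. Tnrc6a and Tnrc6b, which encode the partners through which Argonaute silences a transcript, had log2 fold changes of 1.15 and 0.82. The cholesterol synthesis genes, which lie downstream of miR-122 by an indirect route, had a median log2 fold change of -0.24 after Cre over 18 measured genes. Of these 0 were called higher and 1 lower, Ebp, a sterol isomerase (log2 -0.53, SE 0.09, adjusted p = 0.0216, limma).

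Whole liver holds other cells beside hepatocytes, and in such samples fewer cells of a type and less RNA per cell cannot be told apart. For the counts below, 6.79% of all genes were called higher and 6.12% lower after Cre, and 5.15% and 4.62% at 4 weeks. Over 10 measured hepatocyte markers the mean log2 signal of an array was 13.46 at 2 weeks, 13.47 to 13.48 at 4 weeks and 13.53 to 13.55 in control livers, and of these genes Fgb was called higher (log2 0.22) and Tat lower (log2 -0.62) after Cre. Over 12 stellate cell and fibroblast markers it was 8.60 to 8.74 at 2 weeks, 8.49 to 8.57 at 4 weeks and 8.41 to 8.44 in control livers, so that this list moved with the arrays after Cre, and 1 of its 12 genes, Pdgfrb, was called higher after Cre. Over 6 bile duct markers it was 6.25 to 6.53 at 2 weeks, 6.36 to 6.40 at 4 weeks and 6.23 to 6.29 in control livers, with 1 called higher, Sox9. The ranges of the macrophage, endothelial, and lymphocyte and neutrophil lists overlapped between the 2 week and control arrays. The endothelial mean was 9.06 to 9.17 at 4 weeks and 8.97 to 9.05 in control livers, with 1 gene, Clec4g, called higher at 4 weeks, while 0 of the 12, 12 and 8 genes of these lists were called after Cre by limma, 2 of them having an unadjusted p under 0.05. The part of other cell types in the changes of Tgfbr1, Adam10, Klf6 and Srf, which such cells also express, was not tested.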

How the data were processed

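RNA of 7 mouse livers was hybridised to Affymetrix whole-transcript arrays, per the labels' protocols. The authors deposited a table of log2 signals between 3.15 and 14.7, with every value column mapped to an array. The submitters' processing notes list GCOS 1.4, and how probes were summarised and arrays normalized is unstated in the sources at hand. The number of arrays, 3, 2 and 2 per group, limits the precision.

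The platform annotation gave a single symbol for 17709 of 21093 probe sets, several for 187 and no name for 3197. Of those with 1 symbol 17648 matched a RefSeq gene number (GRCm38.p6, used for names), which changed 0 symbols. Where 1 of the 16819 genes had several probe sets (463 genes), that with the highest mean was kept. Every gene was fitted on the 3 groups with limma (version 3.58.1, R 4.3.3), with 4 residual and 1.69 prior degrees of freedom. Tests were two-sided, p-values were adjusted by Benjamini-Hochberg over all genes, and called means an adjusted p under 0.05. No filter was set on dim genes. Replicates are biological by their titles. The steps were tested on simulated data.

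The targets, their role groups, paralogs and the other lists were chosen with earlier results of these data known. All measured targets are named, with their paralogs where a result turns on one, and of each other list the counts, the median and at most 3 called genes of smallest adjusted p per comparison. The alternatives tried were a replicate block, leaving out each array, quantile normalization, leaving out dim genes, the mean of a gene's probe sets, an intensity trend and fits of 2 groups, and, chosen after seeing the data, leaving out genes with repeated values.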

Additional observations from a re-analysis of the deposited data

How the results depend on the processing

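With 2 or 3 arrays per group, the number of targets called and their median log2 fold change both moved with the arrays used. Without 1 array at a time, the number called ranged from 0 to 13 at 2 weeks, from 0 to 9 at 4 weeks and from 4 to 12 after Cre (6, 7 and 9 with all arrays). The median log2 fold change ranged from 0.15 to 0.50, from 0.25 to 0.41 and from 0.19 to 0.38. The median difference of 4 weeks from 2 weeks ranged from -0.01, a turned sign, to 0.21. With 1 array less there were 3 residual degrees of freedom in place of 4. P4ha1 at 2 weeks ranged from -1.0 without 2 week replicate 2 to 0.94, a turned sign, without 2 week replicate 1, and it was called lower after Cre (-0.66) without 2 week replicate 2. A fit of the control and 2 week arrays alone called 2 targets, where 1.64% of all genes were called (5.93% with all arrays). The same fit of the control and 4 week arrays called 9 targets, where 11.6% of all genes were called (9.77% with all arrays).

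The labels do not say whether the replicate numbers shared by the groups pair the arrays. Deviations of same-numbered arrays from their group means correlated at 0.111 between 2 and 4 weeks and from -0.065 to 0.009 with control. In a group of 2 arrays the deviations mirror each other, so these correlations cannot decide whether the arrays were paired. With the replicate number as a block, which leaves 2 residual degrees of freedom, the number of targets called was 0 in each comparison by limma, where 0, 2 and 5 of all genes were called at 2 weeks, 4 weeks and after Cre.

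Leaving out dim genes kept 25 targets, of which 7 were called at 2 weeks, 12 at 4 weeks and 13 after Cre. Of the genes kept, 20.5%, 26.5% and 33.1% were called (5.93%, 9.77% and 12.9% of all genes with dim genes kept). The medians over the 25 targets were 0.32 at 2 weeks, 0.40 at 4 weeks and 0.36 after Cre. Leaving out genes with repeated values, a setting chosen after seeing the data, kept 20 targets. Of these, 9 were called at 2 weeks, 12 at 4 weeks and 15 after Cre. The medians over the 20 targets were 0.63, 0.63 and 0.66 at 2 weeks, 4 weeks and after Cre. In that setting 26.5%, 34.5% and 42.4% of the genes kept were called at 2 weeks, 4 weeks and after Cre. Quantile normalization, the mean of probe sets and the intensity trend moved no count by over 1.5 times. Of 1543 values of single targets recomputed, 1392 kept their side of the threshold, 106 lost a call, 44 gained one and 1 gained one with its sign turned (P4ha1), and 24 uncalled values against control crossed 0.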
